A study of Homo sapiens with 4 samples.

Results

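Solute carriers are membrane proteins that move ions, nutrients and metabolites across the plasma membrane or across the membranes of vesicles and organelles. The 123 genes described here are the solute carriers of SCC13 cells that passed a threshold on level. Of the 60617 genes in the count table, 284 had a symbol of the form SLC, number, A, number outside the mitochondrial SLC25 family and other than SLC7A11, SLC2A1 and SLC16A3. Of these 284, 123 reached a mean of 5 CPM (counts scaled to the size of each library) over the 4 libraries and were kept, and 161 did not. The choice was thus made by symbol and by mean level, so the level of the members is a description. The 3 carriers just under the threshold were SLC2A12, SLC44A5 and SLC45A1, with means of 4.61, 4.84 and 4.88 CPM. The 3 just above were SLC41A2, SLC22A18 and SLC2A14, with means of 5.08, 5.79 and 5.88 CPM. The symbols do not tell the membrane in which a carrier works: the 123 include carriers of the Golgi and endoplasmic reticulum such as those of the SLC35 family and SLC39A7, and the mitochondrial zinc carrier SLC30A9.

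PolyA RNA was sequenced from SCC13, an established line of human cutaneous squamous cell carcinoma cells of wild-type genotype per the labels, grown in CnT-07 medium with penicillin and streptomycin. The 2 control libraries came from cells infected with a lentivirus carrying a scrambled shRNA, and the 2 knockdown libraries from cells infected with a lentivirus carrying an shRNA against CELF2, which binds RNA and acts on splicing and mRNA stability. The comparison asks which genes differ when CELF2 is targeted in this 1 line, and the study as a whole concerns the part of CELF2 in skin tumours. The labels give no sign of separate cultures and do not say whether both knockdown libraries carry the same shRNA sequence, so a p-value speaks only of the spread among the 4 libraries, which may be technical.

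Carriers are grouped into families by sequence, and members of 1 family often share a kind of substrate. Uptake of essential amino acids, glucose, vitamins and metals depends on them. Some work alone, while others need a partner: the SLC7 light chains that exchange large neutral amino acids pair with the heavy chain SLC3A2, and the SLC16 lactate carriers with basigin or embigin. Gradients of sodium and protons set up by ion pumps drive many of the uphill carriers.

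The libraries held 27898889 and 17649090 counts in the controls and 19928788 and 23177056 counts in the knockdown. CELF2 itself had 1 count in control 1 and 0 in the other 3 libraries, so the target gene does not check the labels. Keratinocyte markers summed to between 11610 and 25020 CPM, and all 10 were tested; their median log2 fold change was 0.53, and 0 passed the threshold (2 higher and 0 lower at an unadjusted p under 0.05, and 2 called higher by DESeq2). Over all tested genes, 12.1% were higher and 9.97% lower at an unadjusted p under 0.05, and DESeq2 called 5.09% higher. Markers of other cell types were low. Fibroblast markers summed to 13.3 and 15.6 CPM in the controls and 38.7 and 21.7 CPM under knockdown, with COL1A2, COL3A1, LUM and DCN at 0. Melanocyte markers summed to 2.04 to 3.97 CPM with MLANA and TYR at 0, endothelial markers to 0.170 to 1.94 CPM, and immune markers to 1.22, 0.397, 10.8 and 2.07 CPM with PTPRC and CD3E at 0. The part of these marker levels in the results below was not tested.

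One solute carrier, SLC17A7, rose past the threshold of the test (edgeR's quasi-likelihood test, Benjamini-Hochberg adjusted p under 0.05 over 15171 genes), and 0 fell. Across all tested genes, 0.606% were called higher and 0.270% lower, together 133 genes or 0.877%. The share among the carriers, 0.813%, lies near that background. At an unadjusted p under 0.05 there were 22 carriers higher (17.9%) and 10 lower (8.13%), against 12.1% and 9.97% of all tested genes, or 26% against 22.1% in either direction. Both knockdown libraries lay above both controls for 47 carriers (38.2%, against 27.1% of all genes), both lay below for 25 (20.3%, against 27.8%), and the groups overlapped for 51. A fitted fold of at least 2 was seen for 9 carriers higher (7.32%, against 8.83% of all genes) and 2 lower (1.63%, against 3.80%). The median log2 fold change was 0.11 over the carriers and -0.0037 over all tested genes. Among the 10920 tested genes that also reach a mean of 5 CPM, 10.8% were higher and 12.3% lower at an unadjusted p under 0.05, and the median was -0.04. Of those genes 24.4% were separated upward and 31.7% downward, 3.91% had a fold of at least 2 upward and 2.85% downward, and 45.5% had a log2 fold change above 0, against 59.3% of the carriers and 49.6% of all tested genes.

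Several facts sit beside these counts. For 7 carriers (SLC17A7, SLC22A18, SLC1A4, SLC41A2, SLC29A4, SLC2A14 and SLC2A10) the control mean was under 5 CPM, so they reached the threshold through the knockdown libraries, and SLC10A7 reached it through the controls. Over the 115 carriers at 5 CPM or more in both groups the median log2 fold change was 0.10. The carriers' transcripts are richer in G and C than those of other genes, with a median of 54.25% against 50.02%. Across genes, which are not independent replicates, the log2 fold change correlated with GC content at a Pearson r of 0.246 in the carriers and 0.263 in all tested genes. With offsets for GC content the carriers' median was -0.02, and over all genes the share of calls that were higher moved from 69.2% of 133 to 37.7% of 350. Of the 133 calls, 131 had an adjusted p above 0.04, so most lie close to the threshold. DESeq2 called 10 carriers higher (8.13%, against 5.09% of all tested genes) and 2 lower (1.63%, against 4.05%), together 9.76% against 9.14%, which is near the background. All 12 are named below with their values. It called 0 in the groups of inorganic ions, metal ions, lipids and nucleotide sugars; limma-voom called 0 in every group.

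**Figure D1:**
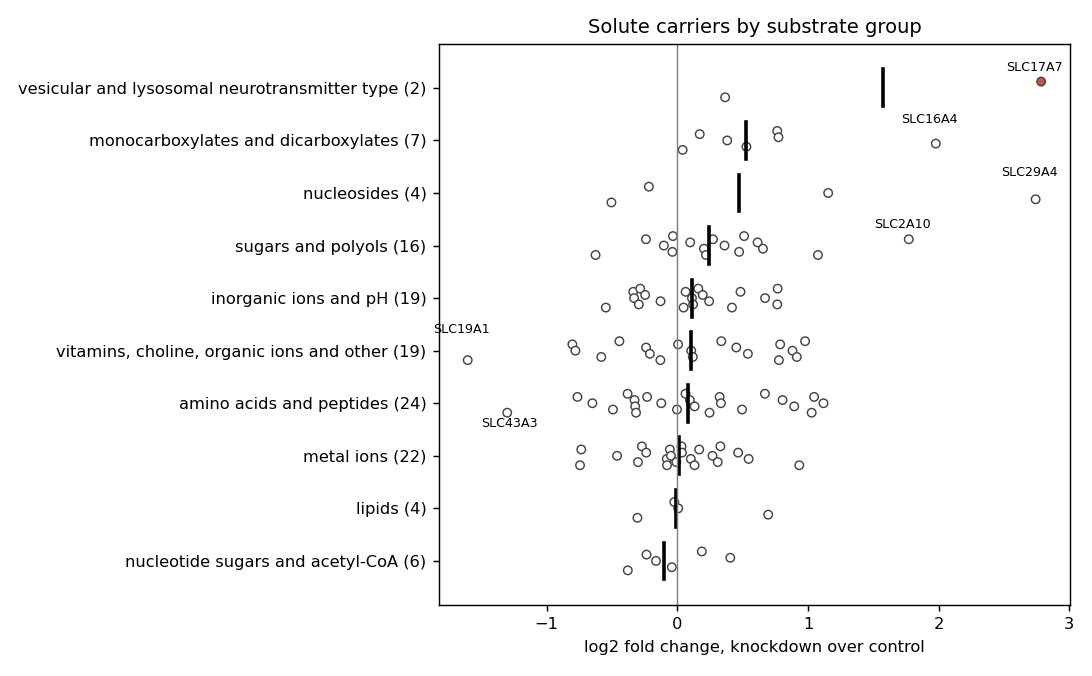
Fitted log2 fold changes (knockdown over control) of the 123 solute carriers by substrate group, with the number of carriers in parentheses. Each point is a gene, filled where it passed the threshold, and black bars are group medians; SLC17A7 is the 1 filled point, and 7 of the 10 group medians lie within 0.25 of 0.

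The carrier that rose belongs to the vesicular and lysosomal SLC17 group, which holds 2 members here. SLC17A7 (VGLUT1, ENSG00000104888, GRCh38 chr19:49429401-49442360, minus strand) loads glutamate into synaptic vesicles of neurons. It had 1.29 and 2.44 CPM in the controls and 10.4 and 14.8 CPM under knockdown, from 36, 41, 210 and 351 counts. Both knockdown libraries stood clear of both controls at a low level. The mean went from 1.86 ± 0.812 CPM (SD, n = 2) to 12.6 ± 3.12 CPM (SD, n = 2), a 6.89-fold difference (log2 fold change 2.78 ± 0.41 SE, edgeR adjusted p = 0.0483). Its exons overlap no other gene in GENCODE v29. The call was lost with limma-voom (adjusted p = 0.0560), without control 1 (adjusted p = 0.142) and without knockdown 2 (adjusted p = 0.107), with log2 fold changes of 2.869, 2.359 and 2.497. SLC17A5, the lysosomal exporter of sialic acid, had 27.0 and 20.4 CPM in the controls and 29.9 and 31.3 CPM under knockdown (log2 fold change 0.37 ± 0.21 SE, adjusted p = 0.357). In bulk RNA, fewer cells with a transcript and less of it per cell cannot be told apart, here as for every carrier below.

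The bases upstream of the RefSeq start are shown for the 4 carriers with the highest log2 fold changes, to let their base composition be compared (RefSeq, GRCh38.p14, 5′ to 3′ on the gene's strand). The windows run from base 250 to base 51 before the start. The printed bases stop where a GENCODE v29 exon begins, and capitals mark the GC box GGGCGG on either strand.
SLC17A7, chr19:49441578-49441777, minus strand: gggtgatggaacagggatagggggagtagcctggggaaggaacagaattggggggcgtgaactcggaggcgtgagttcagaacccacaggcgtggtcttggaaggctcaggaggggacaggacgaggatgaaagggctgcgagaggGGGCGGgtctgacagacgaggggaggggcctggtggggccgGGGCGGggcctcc
SLC29A4, chr7:5282693-5282892, plus strand: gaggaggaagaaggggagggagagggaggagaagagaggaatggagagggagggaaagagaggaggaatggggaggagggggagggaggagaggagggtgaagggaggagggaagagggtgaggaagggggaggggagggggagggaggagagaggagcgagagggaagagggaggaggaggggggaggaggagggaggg
SLC16A4, chr1:110391083-110391276, minus strand: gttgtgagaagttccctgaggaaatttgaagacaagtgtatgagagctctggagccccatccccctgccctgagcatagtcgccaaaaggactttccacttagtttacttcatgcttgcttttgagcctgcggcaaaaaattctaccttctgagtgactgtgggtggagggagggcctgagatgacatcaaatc
SLC2A10, chr20:46709399-46709486, plus strand: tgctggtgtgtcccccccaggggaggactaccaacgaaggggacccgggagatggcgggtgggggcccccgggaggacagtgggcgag
The windows of SLC17A7 and SLC29A4 precede a RefSeq start but lie inside the GENCODE v29 span of their gene. All 4 windows differ in composition. The SLC16A4 window is poor in G and C at 49% over its 200 bases, against 66.5% for SLC17A7, 65.5% for SLC29A4 and 77.5% for SLC2A10. SLC17A7 and SLC2A10 each hold 2 GC boxes in the 200 bases, and SLC29A4 and SLC16A4 hold 0. The values over 200 bases include bases past the start of a GENCODE v29 exon for SLC2A10 (88 bases printed) and SLC16A4 (194 printed). Both GC boxes of SLC2A10 lie past that exon start, and the 88 bases before it hold 0. The E-box CACGTG, the AP-1 site TGACTCA and the letters TATAAA occur in none of the 4 windows on either strand. Bases nearer to the start than base 51 were not searched, so neither this absence nor the shares below cover them. Of the 151 windows listed for 95 matched carriers, 49.7% hold a GC box, 7.28% the E-box, 2.65% the AP-1 site and 3.31% TATAAA. The shares over all 35116 windows of that length are 35%, 4.51%, 3.23% and 7.63%. The median GC content is 64.5% for the carriers' windows and 57.5% for all windows. A match is a description of the letters and not of a bound site.

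Nucleoside carriers had fitted log2 fold changes of both signs. The group holds the 4 equilibrative SLC29 carriers, with 0 past the threshold and a median log2 fold change of 0.47. Of the 4, 2 were higher and 1 lower at an unadjusted p under 0.05, against 12.1% and 9.97% of all tested genes. SLC29A4 (PMAT, ENSG00000164638, chr7:5274369-5306870, plus strand) carries monoamines such as serotonin and dopamine across the plasma membrane. Its level was 1.47 and 2.49 CPM in the controls and 17.7 and 8.42 CPM under knockdown, means of 1.98 ± 0.728 and 13.1 ± 6.57 CPM (SD, n = 2). The groups did not overlap, and the knockdown libraries differed from each other by more than 2-fold. The log2 fold change was 2.74 ± 0.47 SE with an adjusted p of 0.0504, just outside the threshold. It was past the threshold in 7 of the 10 other settings, and not in limma-voom (adjusted p = 0.0628), without control 1 (0.165) or without knockdown 2 (0.07381). Its exons overlap those of TNRC18 on the opposite strand, which had 142.9 CPM in the controls and 216 CPM under knockdown, and reads of the pair cannot be told apart if strand was not used in counting.

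SLC29A3, the lysosomal nucleoside carrier, had 21.0 and 16.6 CPM in the controls and 54.2 and 29.7 CPM under knockdown, a log2 fold change of 1.15 ± 0.30 SE (adjusted p = 0.0902). DESeq2 called it and SLC29A4 higher. The main uptake carrier of adenosine and nucleoside drugs at the plasma membrane, SLC29A1, had the opposite sign. It had 173 and 139 CPM in the controls and 101 and 118 CPM under knockdown, with no overlap (log2 fold change -0.50 ± 0.18 SE, adjusted p = 0.169). Per kilobase of exon SLC29A1 was the most abundant of the 4, at 30.1 CPM per kb. SLC29A2 overlapped between groups, with 24.42, 22.04, 22.90 and 17.10 CPM.

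All 7 carriers of monocarboxylates and dicarboxylates had a log2 fold change above 0, against 49.6% of all tested genes, with a median of 0.53 (0.41 with GC offsets). None passed the threshold. For 5 of the 7 both knockdown libraries lay above both controls (27.1% of all tested genes), and 2 were higher at an unadjusted p under 0.05 (12.1% of all tested genes). SLC16A4 (ENSG00000168679, chr1:110362848-110391082, minus strand), a member of the SLC16 family with no settled substrate, had the largest value. It had 4.08 and 7.37 CPM in the controls and 26.0 and 18.7 CPM under knockdown, or 5.72 ± 2.33 and 22.3 ± 5.13 CPM (SD, n = 2). The log2 fold change was 1.98 ± 0.35 SE with an adjusted p of 0.0518, and DESeq2 called it higher. It was past the threshold in 7 of the 10 other settings, and without control 1 its adjusted p was 0.168. LAMTOR5-AS1 on the opposite strand shares exon bases with it, at 0.308 and 0.758 CPM on average.

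SLC16A5 had 14.91 and 19.96 CPM in the controls and 34 and 25.10 CPM under knockdown (log2 fold change 0.76 ± 0.25 SE, adjusted p = 0.136). SLC16A13 had 5.26 and 9.15 CPM in the controls and 14.5 and 9.98 CPM under knockdown (0.77 ± 0.36 SE, adjusted p = 0.255). The lactate and pyruvate carrier SLC16A1 (MCT1) was by far the most abundant of the group per length, at 41.0 CPM per kb. Its levels of 208, 202, 230 and 231 CPM differed little, though the groups did not overlap (log2 fold change 0.17 ± 0.15 SE, adjusted p = 0.561). Of the partner and chaperone proteins that carriers need, 6 were tested, with 0 calls and a median log2 fold change of 0.07. In that list NPTN, a relative of basigin, had the smallest p, with 76.7 and 73.4 CPM in the controls and 57.0 and 58.0 CPM under knockdown (log2 fold change -0.38, adjusted p = 0.218). The scaffold SLC9A3R1, which anchors sodium-proton exchangers, followed with a log2 fold change of 0.33 (adjusted p = 0.448).

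**Figure D2:**
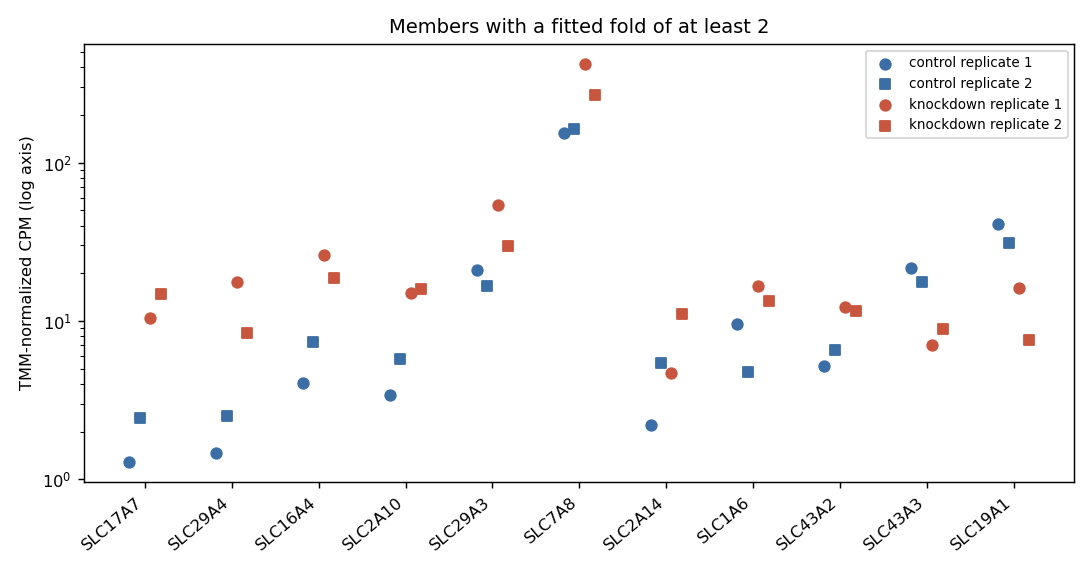
Level in each library (TMM-normalized CPM, log axis) of the 11 carriers whose fitted fold was at least 2 in either direction. Blue marks are the 2 control libraries and red marks the 2 knockdown libraries; SLC2A14 is the 1 gene of the 11 whose groups overlap, and SLC43A3 and SLC19A1 are the 2 that lay lower in the knockdown.

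Sugar and polyol carriers numbered 16, with 0 calls and a median log2 fold change of 0.25 (0.13 with GC offsets). Of the 16, 3 were higher (18.8%) and 1 lower (6.25%) at an unadjusted p under 0.05, against 12.1% and 9.97% of all tested genes. SLC2A10 (GLUT10, ENSG00000197496, chr20:46709487-46736347, plus strand), a facilitative carrier of inner membranes whose loss causes arterial tortuosity syndrome, had 3.40 and 5.76 CPM in the controls and 15.1 and 15.9 CPM under knockdown. The means were 4.58 ± 1.67 and 15.5 ± 0.548 CPM (SD, n = 2), with a log2 fold change of 1.77 ± 0.33 SE and an adjusted p of 0.0536. DESeq2 called it higher. It was in 5 of the 10 other settings past the threshold, and without control 1 its adjusted p was 0.204. SLC50A1, a sugar carrier of the SWEET family, was the most abundant of the group per length at 37.3 CPM per kb. It had 68.0 and 78.4 CPM in the controls and 105 and 98.1 CPM under knockdown (log2 fold change 0.47 ± 0.17 SE, adjusted p = 0.161).

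The glucose carrier SLC2A3 (GLUT3) differed as much within the groups as between them. Its levels were 69.6 and 170 CPM in the controls and 113 and 252 CPM under knockdown, so replicate 2 was more than 2-fold above replicate 1 in both groups (log2 fold change 0.61 ± 0.47 SE, adjusted p = 0.484). SLC2A14, a near-identical copy of SLC2A3, showed the same order at 2.22, 5.41, 4.69 and 11.1 CPM (1.08 ± 0.55 SE, adjusted p = 0.297), and reads of the copies may have been split between them, so its counts are uncertain. The SLC5 family is placed with sugars by name, yet SLC5A6 carries biotin and pantothenate. SLC5A6 had 97.9 and 83.7 CPM in the controls and 46.3 and 71.4 CPM under knockdown (-0.63 ± 0.23 SE, adjusted p = 0.176), and shares exon bases with ATRAID on the opposite strand.

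Amino acid and peptide carriers were the largest group, with 24 members. None passed the threshold, and the median log2 fold change was 0.08 (-0.11 with GC offsets). At an unadjusted p under 0.05, 5 were higher (20.8%) and 2 lower (8.33%), against 12.1% and 9.97% of all tested genes. Both knockdown libraries lay above both controls for 8 (33.3%, against 27.1% of all tested genes) and below for 8 (33.3%, against 27.8%). The groups overlapped for 8. The exchanger of large neutral amino acids SLC7A5 (LAT1) and its heavy chain SLC3A2 were the most abundant of all 123 carriers per length, at 509 and 162 CPM per kb. SLC7A5 had 1949 and 2471 CPM in the controls and 3667 and 1575 CPM under knockdown, so that 1 knockdown library was the highest of the 4 and the other the lowest. It took 20.6%, 22.9%, 29.8% and 15.9% of the summed CPM of all 123 carriers. SLC3A2 was highest in knockdown 1 as well, with 648 and 836 CPM in the controls and 1178 and 693 CPM under knockdown, and its lowest library was control 1. Neither differed beyond the spread between libraries: the log2 fold change was 0.25 ± 0.37 SE (adjusted p = 0.740) for SLC7A5 and 0.33 ± 0.28 SE (adjusted p = 0.523) for SLC3A2. Without knockdown 1 both turned sign, to -0.48 and -0.09, and with GC offsets SLC7A5 was at -0.08.

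Other light chains that pair with SLC3A2 had other values. SLC7A8 (LAT2, ENSG00000092068, chr14:23125295-23183674, minus strand), an exchanger of small and large neutral amino acids, had 153.5 and 162 CPM in the controls and 419.5 and 266 CPM under knockdown. The means were 158 ± 6.26 and 343 ± 108.5 CPM (SD, n = 2), a log2 fold change of 1.12 ± 0.23 SE with an adjusted p of 0.0618. The groups did not overlap, DESeq2 called it higher, and leaving out knockdown 1 brought the log2 fold change to 0.76. SLC7A6, which exchanges cationic for neutral amino acids, had 164, 132, 131.5 and 140 CPM (log2 fold change -0.12 ± 0.18 SE). Whether SLC7A8 differs from SLC7A5 in its response was not tested.

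The SLC43 family split. SLC43A2 (LAT4), a facilitative carrier of branched-chain amino acids, had 5.18 and 6.54 CPM in the controls and 12.3 and 11.5 CPM under knockdown (log2 fold change 1.03 ± 0.28 SE, adjusted p = 0.0955). SLC43A3 (ENSG00000134802, chr11:57406954-57427580, minus strand), which carries purine nucleobases despite its family, had 21.4 and 17.6 CPM in the controls and 7.01 and 8.84 CPM under knockdown. The means were 19.5 ± 2.69 and 7.93 ± 1.298 CPM (SD, n = 2), a log2 fold change of -1.30 ± 0.26 SE with an adjusted p of 0.0583. Both genes had non-overlapping groups, and DESeq2 called SLC43A2 higher and SLC43A3 lower. SLC43A3 was past the threshold in 5 of the 10 other settings.

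Carriers of glutamate and of neutral amino acids gave the following values. SLC1A3 (EAAT1), a sodium-driven glutamate carrier, had 105 and 63.6 CPM in the controls and 61.0 and 46.9 CPM under knockdown (log2 fold change -0.65 ± 0.27 SE, adjusted p = 0.209). Its relative SLC1A6 (EAAT4) had 9.62 and 4.75 CPM in the controls and 16.5 and 13.4 CPM under knockdown (1.05 ± 0.36 SE, adjusted p = 0.157). The groups did not overlap for either. SLC6A6, the taurine carrier, had 90.5 and 130.5 CPM in the controls and 166 and 185 CPM under knockdown (0.67 ± 0.21 SE, adjusted p = 0.126). The glutamine carriers were high in both groups. SLC38A2 was the fourth most abundant carrier per length, at 76.6 CPM per kb, with 347 and 643 CPM in the controls and 380 and 653 CPM under knockdown, replicate 2 being the higher in both groups. SLC1A5 (ASCT2) followed at 72.0 CPM per kb with 177, 287, 258 and 238 CPM. SLC38A1 had 302 and 332 CPM in the controls and 235 and 274 CPM under knockdown (-0.32 ± 0.17 SE, adjusted p = 0.323).

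Control 1 stood apart for 2 amino acid carriers. SLC1A4 (ASCT1), a carrier of serine and alanine, had 1.72 CPM there against 7.90, 8.98 and 8.55 CPM in the other 3 libraries. SLC6A9 (GlyT1), the glycine carrier, had 5.76 CPM there against 23.2, 23.5 and 26.5 CPM. Their log2 fold changes were 0.89 ± 0.61 SE (adjusted p = 0.433) and 0.81 ± 0.54 SE (adjusted p = 0.425). Without control 1 they were 0.14 and 0.10, and without control 2 they were 2.36 and 2.14 and passed the threshold (adjusted p = 0.0261 and 0.0138), so both values depend on which control is kept; with no filter on low counts SLC6A9 also passed the threshold (adjusted p = 0.0284). A list of 16 amino acid response genes holds mostly targets of the transcription factor ATF4 and its relatives, with ATF4 itself and EIF2AK4. As a sum it was low in that library as well, at 2046 CPM in control 1 and 3500, 3689 and 3835 CPM in the others. Not every gene followed the sum: EIF2AK4 had 145.4 CPM in control 1 and 122 CPM in control 2. In this list CHAC1 and TRIB3, chosen after their values were seen, had 5.90 and 92.0 CPM in control 1, against 29.6 to 43.9 CPM and 273 to 486 CPM elsewhere. Of the 15 tested, 0 were called, and the median log2 fold change was 0.27. Among them 3 were higher and 0 lower at an unadjusted p under 0.05, against 12.1% and 9.97% of all tested genes. The smallest p-values belonged to the serine synthesis enzyme PHGDH (log2 fold change 0.51 ± 0.17 SE, adjusted p = 0.151) and the transcription factor CEBPB (0.72 ± 0.28 SE, adjusted p = 0.186). The part of this response in the carriers' values was not tested.

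**Figure D3:**
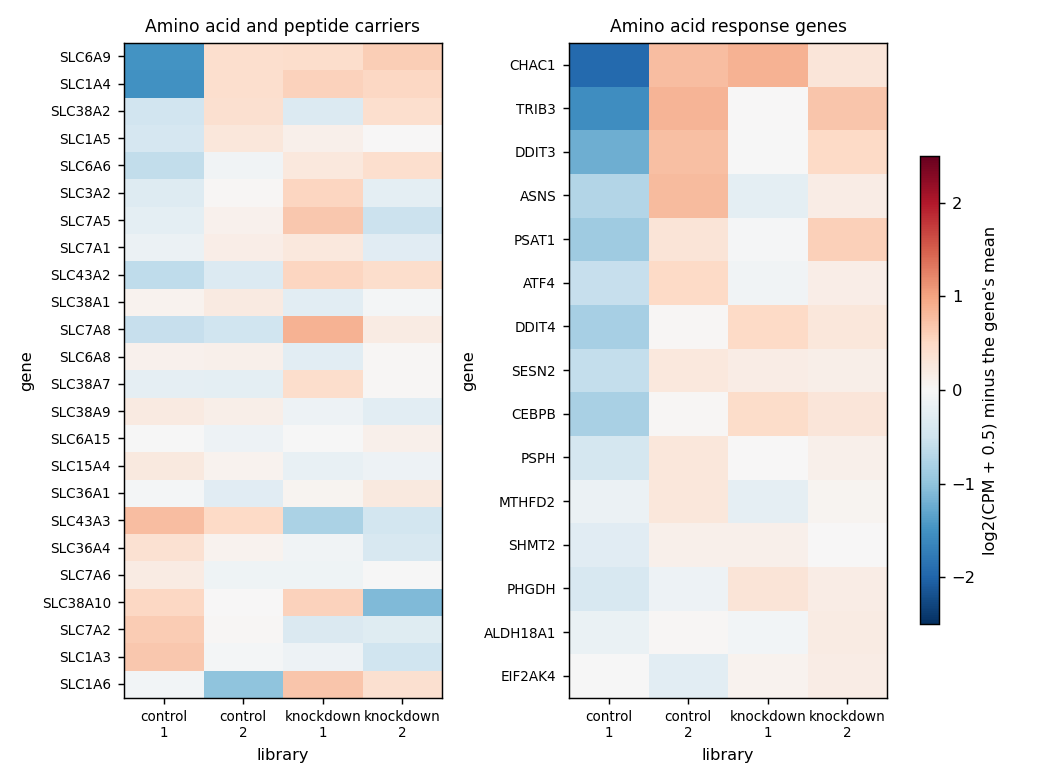
Level of each gene in each library as log2(CPM + 0.5) minus the gene's mean over the 4 libraries, for the 24 amino acid and peptide carriers (left) and the 15 tested amino acid response genes (right). Genes are ordered by the difference between the controls; SLC1A4, SLC6A9, CHAC1 and TRIB3 are lowest in control 1.

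Carriers of inorganic ions and of acid and base equivalents, 19 genes, had 0 calls and a median log2 fold change of 0.11 (-0.13 with GC offsets). Of the 19, 4 were higher (21.1%) and 0 lower at an unadjusted p under 0.05, against 12.1% and 9.97% of all tested genes. The potassium-chloride cotransporter SLC12A4 (KCC1), which lowers cell volume, had 54.5 and 71.2 CPM in the controls and 109 and 91.0 CPM under knockdown (log2 fold change 0.67 ± 0.20 SE, adjusted p = 0.111). The sodium-proton exchanger SLC9A5 had 9.12 and 12.1 CPM against 19.5 and 16.5 CPM (0.77 ± 0.26 SE, adjusted p = 0.143), and SLC12A8 had 6.69 and 7.90 CPM against 14.0 and 10.7 CPM (0.76 ± 0.28 SE, adjusted p = 0.170). All 3 had non-overlapping groups and share exon bases with another gene. The lowest log2 fold change was that of SLC9A8, an exchanger of Golgi and endosomes, at -0.55 ± 0.30 SE (adjusted p = 0.334). The phosphate carrier SLC20A1 led the group per length at 47.0 CPM per kb, with 208, 361, 196 and 284 CPM. Its groups overlapped (log2 fold change -0.25 ± 0.29 SE, adjusted p = 0.662). The anion exchanger SLC4A2 had 200, 155, 169 and 113 CPM (-0.33 ± 0.23 SE, adjusted p = 0.449).

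Pumps and regulators of these carriers were taken from 2 lists. The background for both is the share over all tested genes, 12.1% higher and 9.97% lower at an unadjusted p under 0.05. Of 16 tested sodium and proton pump subunits, 4 were higher and 0 lower at an unadjusted p under 0.05 and 0 were called, with a median log2 fold change of 0.11. The sodium pump subunit ATP1B2 had 0.2503 and 0.4159 CPM in the controls and 2.32 and 1.85 CPM under knockdown, from 7, 7, 47 and 44 counts (log2 fold change 2.67 ± 0.54 SE, adjusted p = 0.0598). The V-ATPase subunit ATP6V0D1 had 147 and 149 CPM against 201 and 225 CPM (0.52 ± 0.16 SE, adjusted p = 0.120). Of 11 kinases and ligases that act on ion carriers, 2 were higher and 1 lower, 0 were called, and the median was -0.07. STK39 (SPAK), the kinase that phosphorylates SLC12 cotransporters, had 50.5 and 36.2 CPM in the controls and 20.1 and 21.7 CPM under knockdown (-1.05 ± 0.22 SE, adjusted p = 0.0618). KLHL3, a ubiquitin ligase adaptor for the kinases upstream of STK39, had 3.11 and 2.67 CPM against 7.35 and 4.30 CPM (1.00 ± 0.39 SE, adjusted p = 0.190).

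Metal ion carriers, 22 genes, had 0 calls and a median log2 fold change of 0.01 (-0.04 with GC offsets). Of the 22, 0 were higher and 2 lower (9.09%) at an unadjusted p under 0.05, against 12.1% and 9.97% of all tested genes. The 2 were zinc carriers. SLC30A9, a zinc exporter of mitochondria, had 55.9 and 46.2 CPM in the controls and 36.7 and 24.6 CPM under knockdown (log2 fold change -0.74 ± 0.24 SE, adjusted p = 0.133). SLC39A10 (ZIP10), a zinc importer, had 150 and 82.4 CPM in the controls and 81.1 and 57.9 CPM under knockdown (-0.74 ± 0.30 SE, adjusted p = 0.205). Control 1 was the high library, and control 2 nearly met knockdown 1. SLC30A7, which loads zinc into the Golgi, was lower in both knockdown libraries, with 29.6 and 24.3 CPM against 20.1 and 19.1 CPM (-0.46 ± 0.21 SE, adjusted p = 0.241). The magnesium carrier SLC41A2 had the highest log2 fold change of the group, 0.93 ± 0.42 SE (adjusted p = 0.243), from 4.22 and 2.67 CPM to 8.54 and 4.76 CPM.

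The 3 most abundant metal carriers per length overlapped between the groups. SLC39A7 (ZIP7), which releases zinc from the endoplasmic reticulum, was the third most abundant carrier per length at 131 CPM per kb, with 319, 390, 317 and 460 CPM. The importers SLC39A14 and SLC39A6 had log2 fold changes of 0.03 ± 0.22 SE and 0.04 ± 0.18 SE. The plasma membrane zinc exporter SLC30A1, a target of the zinc sensor MTF1, had 21.4, 21.0, 21.8 and 29.3 CPM. Of 5 tested zinc response genes, 0 were called, and the median log2 fold change was -0.35, with 1 gene above 0 and 4 below. Among them 1 was higher and 1 lower at an unadjusted p under 0.05, against 12.1% and 9.97% of all tested genes. MT1X had 17.2 and 23.0 CPM in the controls and 44.3 and 64.8 CPM under knockdown (log2 fold change 1.45 ± 0.25 SE, adjusted p = 0.0517). MT1F, another metallothionein, had 29 and 20.91 CPM against 10.4 and 16.6 CPM (-0.89 ± 0.29 SE, adjusted p = 0.142), so the 2 metallothioneins had opposite signs. Metallothioneins are near-identical copies, and their counts are uncertain.

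Iron and copper carriers had small differences. SLC11A2 (DMT1), the ferrous iron carrier, had 62.1, 65.2, 70.8 and 65.9 CPM (log2 fold change 0.10 ± 0.16 SE), and the copper importer SLC31A1 (CTR1) had 85.6, 84.1, 93.3 and 120 CPM (0.33 ± 0.18 SE, adjusted p = 0.336). Of 9 tested iron handling genes, 0 were called, with a median log2 fold change of 0.11. Among them 2 were higher and 1 lower at an unadjusted p under 0.05, against 12.1% and 9.97% of all tested genes. DESeq2 called 1 gene higher in each of the pump, zinc and iron lists and 1 gene lower among the kinases and ligases. Among the partners and the amino acid response genes it called 0, against 5.09% higher and 4.05% lower over all tested genes. The ferritin heavy chain FTH1, which stores iron, had 1568 and 1269 CPM in the controls and 3169 and 2478 CPM under knockdown (0.99 ± 0.22 SE, adjusted p = 0.0675). The transferrin receptor TFRC had 70.0 and 69.0 CPM against 95.9 and 112 CPM (0.58 ± 0.17 SE, adjusted p = 0.103).

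Carriers of vitamins, choline, organic ions and other substrates, 19 genes, had 0 calls and a median log2 fold change of 0.11 (-0.08 with GC offsets). Among them 5 were higher (26.3%) and 4 lower (21.1%) at an unadjusted p under 0.05, against 12.1% and 9.97% of all tested genes. DESeq2 called 3 higher (SLC48A1, SLC22A23 and SLC22A17) and 1 lower (SLC19A1). SLC19A1 (ENSG00000173638, chr21:45493572-45544411, minus strand), the reduced folate carrier that also takes up methotrexate, had the lowest log2 fold change of all 123 carriers. It had 40.7 and 31.0 CPM in the controls and 16.1 and 7.54 CPM under knockdown, or 35.9 ± 6.87 and 11.8 ± 6.08 CPM (SD, n = 2). The groups did not overlap, and the knockdown libraries were more than 2-fold apart. The log2 fold change was -1.60 ± 0.36 SE with an adjusted p of 0.0674, and 6 of the 10 other settings put it past the threshold. Without control 1 the adjusted p was 0.256 and without knockdown 2 it was 0.113. COL18A1 on the opposite strand shares exon bases with it and had 21.3 and 23.6 CPM on average. The thiamine carrier SLC19A2 of the same family had 26.3 and 19.7 CPM in the controls and 14.8 and 19.1 CPM under knockdown (-0.44 ± 0.25 SE, adjusted p = 0.339).

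SLC23A2 (SVCT2), which takes up vitamin C, had 76.8 and 70.0 CPM in the controls and 48.07 and 50.03 CPM under knockdown, with close replicates (log2 fold change -0.58 ± 0.17 SE, adjusted p = 0.102). SLC48A1 (HRG1), which moves heme out of lysosomes, had 24.2 and 21.0 CPM in the controls and 43.2 and 34.9 CPM under knockdown (0.79 ± 0.20 SE, adjusted p = 0.0866). It shares exon bases with RAPGEF3 on the opposite strand, which had 4.401 and 16.98 CPM on average, a log2 fold change of 1.88, so reads of the pair may be mixed. All 5 members of the organic ion family SLC22, 1 of 40 families and singled out after the values were seen, had both knockdown libraries above both controls, against 27.1% of all tested genes; SLC22A18 reached the level threshold through the knockdown libraries. SLC22A23 had 23.4 and 18.5 CPM in the controls and 46.3 and 32.8 CPM under knockdown (0.91 ± 0.24 SE, adjusted p = 0.0889). SLC22A17, the receptor of lipocalin 2, had 9.01 and 9.74 CPM against 19.3 and 15.3 CPM (0.88 ± 0.25 SE, adjusted p = 0.101). SLC22A18, an imprinted gene, had 3.22 and 4.58 CPM against 10.1 and 5.22 CPM (0.98 ± 0.41 SE, adjusted p = 0.219). The choline carrier-like SLC44A2 was the most abundant of the group per length at 46.3 CPM per kb, with 217, 249, 260 and 241 CPM. The riboflavin carrier SLC52A2 and the orphan SLC10A3 followed, with log2 fold changes of -0.13 ± 0.18 SE and 0.12 ± 0.16 SE.

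Lipid carriers and carriers of nucleotide sugars gave 0 calls and 0 genes at an unadjusted p under 0.05. The 4 fatty acid carriers of the SLC27 family had a median log2 fold change of -0.01. SLC27A1 (FATP1) had 8.33 and 14.0 CPM in the controls and 21.4 and 14.6 CPM under knockdown (0.70 ± 0.33 SE, adjusted p = 0.265). SLC27A4 (FATP4), needed for the skin barrier and the most abundant of the 4 per length at 18.3 CPM per kb, had 69.8, 55.7, 56.6 and 45.0 CPM (-0.31 ± 0.20 SE, adjusted p = 0.418). SLC27A3 and SLC27A5 had log2 fold changes of 0.01 ± 0.17 SE and -0.02 ± 0.24 SE. The 6 Golgi and endoplasmic reticulum carriers of nucleotide sugars and acetyl-CoA had a median of -0.10. The CMP-sialic acid carrier SLC35A1 had the highest value (0.40 ± 0.25 SE, adjusted p = 0.389), and the UDP-N-acetylglucosamine carrier SLC35A3 the lowest (-0.38 ± 0.29 SE, adjusted p = 0.489). The UDP-galactose carrier SLC35A2 and SLC35A4 were at 0.19 ± 0.18 SE and -0.04 ± 0.19 SE.

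**Figure D4:**
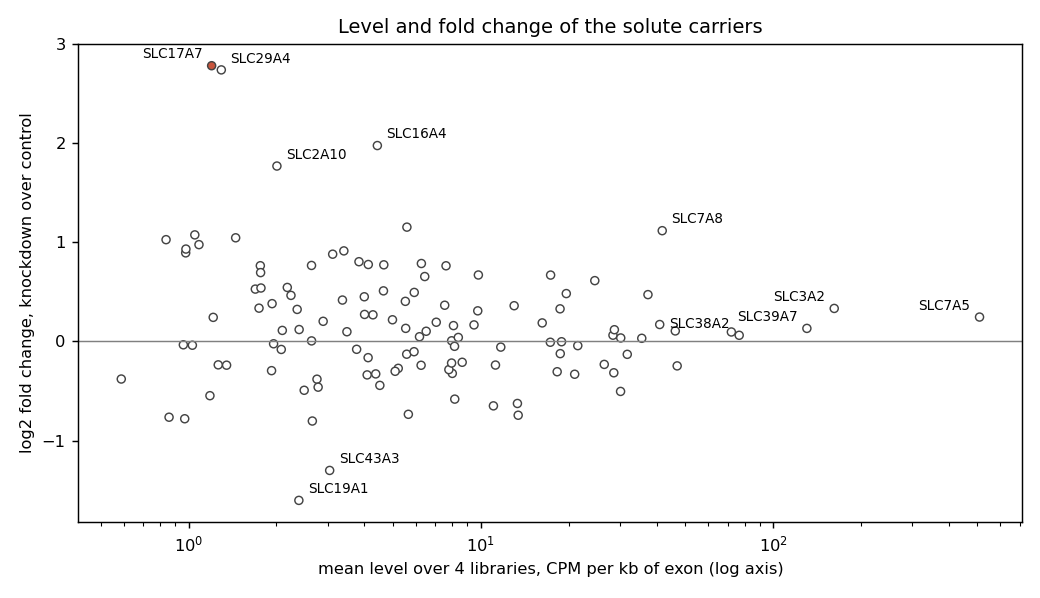
Mean level of each of the 123 carriers over the 4 libraries (CPM per kb of exon, log axis) against its log2 fold change (knockdown over control). SLC7A5 and SLC3A2 are the points farthest to the right, at 509 and 162 CPM per kb, and the filled point is SLC17A7 at 1.20 CPM per kb.

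Level and fold change can be read together. The 4 most abundant carriers per length, SLC7A5, SLC3A2, SLC39A7 and SLC38A2, had log2 fold changes between 0.06 and 0.33. The carriers with the highest log2 fold changes were low: SLC17A7, SLC29A4 and SLC2A10 had mean levels of 1.20, 1.29 and 2.01 CPM per kb, and SLC16A4 of 4.43 CPM per kb. The first 3 of these had control means under 5 CPM and were kept through their knockdown libraries, so the threshold itself ties a low level to a high fold change there. The 123 carriers together took 9475 and 10810 CPM in the controls and 12300 and 9912 CPM under knockdown, so the groups overlapped in the sum. The 60 carriers not named above with a test had log2 fold changes from -0.80 to 0.78, and 0 of them passed the threshold.

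**Figure D5:**
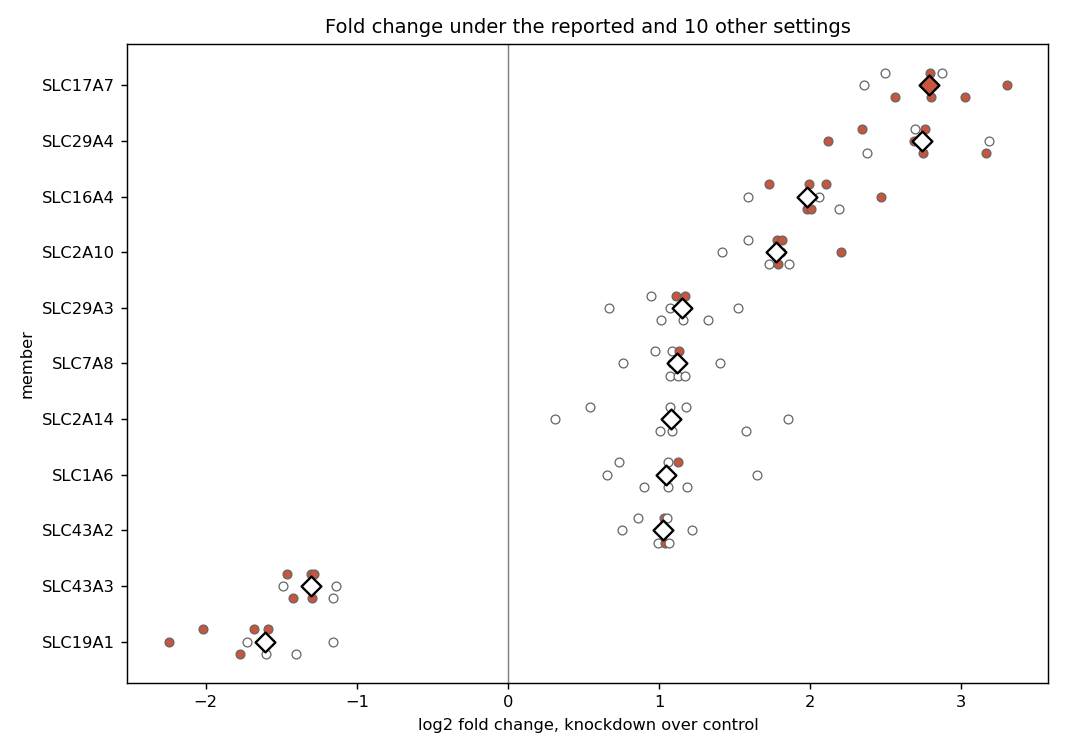
Log2 fold change (knockdown over control) of the 11 carriers with a fitted fold of at least 2, under the reported setting (diamonds) and the 10 other settings (circles), filled where the adjusted p was under 0.05. Each of the 11 kept its sign in all 10, and SLC17A7, SLC29A4 and SLC16A4 were past the threshold in 7 of them.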

How the data were processed

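PolyA RNA of 4 SCC13 libraries was analysed from the raw read counts, 1 value per gene and library, that the authors deposited. HISAT2, edgeR and GRCh38 are named in the submitters' processing notes without versions. Sources used here do not give the counting program, annotation release, strand setting or handling of shared reads. Groups and replicate numbers came from the sample titles.

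Counts were fitted with edgeR 4.0.16 (R 4.3.3): TMM normalization, the filterByExpr filter at a minimum count of 10, the quasi-likelihood test, and Benjamini-Hochberg adjustment at 0.05 over the 15171 genes tested. CELF2 stayed in regardless of its counts. All 123 carriers were tested. The common biological coefficient of variation was 21.6%. Printed CPM values are TMM-normalized, except the values at the level threshold and the sums over marker and response lists, which are scaled to the library total. Level per length is CPM per kb of the GENCODE v29 exon union, and 59 of the 123 carriers share exon bases with another gene there, which makes their counts uncertain. The chi-square per degree of freedom was 54.3 between the controls and 48.1 between the knockdown libraries, so replicates are distinct libraries. The fit was also run on counts simulated with a dispersion common to all genes. That run does not show how well the fit finds changes in these libraries.

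The members and lists were chosen with earlier results of these data known, so their counts are descriptions. Genes were named by a rule: the members called and, per substrate group, the 3 smallest p-values, the highest and lowest log2 fold change and the 3 highest levels per length; SLC3A2 and its SLC7 partners; the 3 carriers on each side of the threshold; and from each list the 2 smallest p-values. SLC1A3, SLC1A4, SLC1A5, SLC1A6, SLC6A9, SLC6A6, SLC2A14, SLC22A17, SLC23A2, SLC30A1, SLC11A2, SLC31A1, SLC38A1 and SLC19A2 were added after their values were seen. A few of the genes meeting the rule are not reported here. Alternatives were RLE size factors, DESeq2 1.42.0, limma-voom 3.58.1, no filter on low counts, a replicate block, offsets for transcript GC content (a spline with 5 degrees of freedom), and leaving out each library. Promoter windows came from RefSeq, which matched 95 of the 123 carriers by symbol.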

Additional observations from a re-analysis of the deposited data

How the results depend on the processing

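Against 133 genes called, 211 were called with RLE size factors, 1386 with DESeq2, 0 with limma-voom (3404 at an unadjusted p under 0.05, smallest adjusted p 0.0560), 2139 with no filter on low counts and 350 with GC-content offsets. Leaving out 1 library gave 0 to 616 calls: 0 without control 1 (1724 at an unadjusted p under 0.05), 616 without control 2, 368 without knockdown 1 and 7 without knockdown 2; the lone library of a group is then assumed to vary like the other group. Among the carriers, against 1 higher and 0 lower, there were 3 higher with RLE, 10 higher and 2 lower with DESeq2, 0 with limma-voom, 17 higher and 6 lower with no filter, and 3 higher and 2 lower with GC offsets; leaving out 1 library gave 0 to 6 higher and 0 to 3 lower. The carriers' median log2 fold change of 0.11 became -0.024 with GC offsets, and 0.10 to 0.18 when 1 library was left out. With a replicate block 1579 genes were called, 12 carriers higher, SLC2A3 among them, and 4 lower. By their titles, control and knockdown samples are linked only by number. The deposited columns run control 1, knockdown 1, control 2, knockdown 2, and the labels do not say whether equal numbers mark a pair. Deviations of equally numbered samples correlated at 0.1996 over all genes and at 0.2384 over the carriers.

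Some log2 fold changes turned sign. With GC offsets these were SLC7A5 (-0.0801), SLC1A5 (-0.14), SLC27A3 (-0.26), SLC39A7 (-0.024), SLC39A14 (-0.13), SLC35A2 (-0.0496), SLC10A3 (-0.20), SLC44A2 (-0.0619) and SLC9A3R1 (-0.0063), and with limma-voom SLC27A5 (7e-04). When 1 library was left out, ranges crossed 0 for SLC3A2 (-0.0911 to 0.66), SLC7A6 (-0.26 to 0.0352), SLC7A5 (-0.48 to 0.73), SLC1A5 (-0.22 to 0.50), SLC38A2 (-0.39 to 0.59), SLC20A1 (-0.60 to 0.22), SLC27A5 (-0.19 to 0.16), SLC27A3 (-0.074 to 0.0878), SLC39A7 (-0.17 to 0.38), SLC39A6 (-0.14 to 0.20), SLC39A14 (-0.20 to 0.32), SLC35A4 (-0.22 to 0.12), SLC2A3 (-0.0811 to 1.41), SLC52A2 (-0.30 to 0.0653), CHAC1 (-0.18 to 2.65), TRIB3 (-0.45 to 1.97) and SLC9A3R1 (-0.0222 to 0.61). The cause was not tested.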

Other observations

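Solute carriers under the threshold on level numbered 161. Of these, 62 had 0 counts in all 4 libraries and 40 were tested. Their median log2 fold change was 0.49, against -0.0037 over all tested genes, and edgeR called 0. Of the 40, 10 were higher and 3 lower at an unadjusted p under 0.05, against 12.1% and 9.97% of all tested genes. No background over genes of similarly low level is given here. DESeq2 called 1 higher and 1 lower, against 5.09% and 4.05% of all tested genes, and limma-voom called 0.

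The SLCO carriers, which take up organic anions such as steroid conjugates, bile acids and prostaglandins, were outside the 123 by their symbols. Of 11 on the list, 5 had 0 counts everywhere and 6 were tested. The 6 had 0 calls by edgeR or DESeq2 and a median log2 fold change of -0.26. Among them 1 was higher and 0 lower at an unadjusted p under 0.05, against 12.1% and 9.97% of all tested genes. SLCO4C1, a carrier of cardiac glycosides and steroid conjugates, had 1.11 and 3.62 CPM in the controls and 6.66 and 6.06 CPM in the knockdown (1.46 ± 0.54 SE, edgeR adjusted p = 0.172). SLCO3A1, a prostaglandin carrier, had 18.1, 14.7, 14.8 and 13.5 CPM (-0.22 ± 0.23 SE, edgeR adjusted p = 0.632).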
